A study of Mus musculus with 15 samples.

Results

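Glycolysis, glucose and lactate transport were followed through the transcripts of 34 mouse genes in 15 RNA-seq libraries of cultured CD4 T cells. The genes were named by symbol as glycolytic enzymes, glucose and lactate transporters and genes that govern the fate of pyruvate, and each symbol was matched to the Ensembl identifiers of the deposited table. They took up 35 of its 55421 rows, because Aldoa had a second identifier at 0 to 1.56 TPM that was left out of the Aldoa values. All 34 genes reached 1 TPM (a level corrected for transcript length and scaled to 1 common total per library) in at least 3 libraries and were tested among 12800 genes. Naive CD4 T cells from mouse spleen and lymph node were activated on plates coated with anti-CD3 at 2 μg/ml and anti-CD28 at 1 μg/ml and harvested on day 5. TH17 cultures, which drive the IL-17-secreting helper lineage, held TGFβ at 2.5 ng/ml with IL-6, IL-1β and IL-23 at 10 ng/ml each. Treg cultures, which drive the regulatory lineage defined by FOXP3, held IL-2 at 200 U/ml and TGFβ at 0.5 ng/ml or another indicated dose. Both kinds of culture also held antibodies against IFNγ and IL-4.

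There were 5 groups of 3 libraries each: TH17 cells of STAT3-fl/fl CD4-cre mice given DMSO (the STAT3 knockout), wild-type TH17 cells given DMSO, wild-type TH17 cells given Srci1, wild-type Treg cells given DMSO, and wild-type Treg cells given Srci1. Cre under the control of Cd4 acts in developing T cells, so the floxed allele is cut before the cultures begin, and the controls were labelled wild type rather than Cre-bearing. Srci1, for which the labels give neither a structure nor a dose, went into the cultures 24 h after plating. The series asks how T cell receptor signalling and STAT3 bear on TH17 differentiation. The labels do not say whether replicates are separate mice or cultures, and the p-values below therefore rest on a spread between libraries that may be technical.

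Glycolysis splits glucose into pyruvate in the cytosol and yields ATP and building blocks without oxygen. Activated T cells are known for raising glucose uptake and turning much of the pyruvate into lactate, which leaves the cell through monocarboxylate transporters. Pyruvate that is not reduced to lactate enters mitochondria through the MPC carrier and is oxidised by pyruvate dehydrogenase, which the PDK kinases switch off. The transcription factor HIF-1α is a classical activator of many of these genes, and it binds DNA at a core of ACGTG or GCGTG.

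The DNA before the start of these genes is shown for members that stand on either side of the knockout comparison, 3 that fell (Hk2, Pgk1 and Ldha) and 3 that rose (Ldhb, Pdk2 and Eno3). The sequences are the 250 bases before a RefSeq transcript start on GRCm38.p6, 5′ to 3′ on the gene's own strand, and capitals mark ACGTG or GCGTG on either strand. They were chosen after the values were seen. The windows are chr6:82774455-82774704 on the minus strand for Hk2, chrX:106186850-106187099 on the plus strand for Pgk1, chr7:46845554-46845803 on the plus strand for Ldha, chr6:142507958-142508207 on the minus strand for Ldhb, chr11:95041372-95041621 on the minus strand for Pdk2 and chr11:70656926-70657175 on the plus strand for Eno3.
Hk2: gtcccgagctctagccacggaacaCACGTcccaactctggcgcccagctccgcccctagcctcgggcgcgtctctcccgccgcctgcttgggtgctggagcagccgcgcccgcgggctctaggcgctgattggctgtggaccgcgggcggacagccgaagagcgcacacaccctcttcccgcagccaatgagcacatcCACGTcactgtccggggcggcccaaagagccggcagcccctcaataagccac
Pgk1: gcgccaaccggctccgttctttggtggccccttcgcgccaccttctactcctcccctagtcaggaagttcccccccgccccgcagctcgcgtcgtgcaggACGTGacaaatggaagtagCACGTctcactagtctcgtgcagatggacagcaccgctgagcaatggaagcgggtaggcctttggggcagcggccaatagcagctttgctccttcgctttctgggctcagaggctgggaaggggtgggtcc
Ldha: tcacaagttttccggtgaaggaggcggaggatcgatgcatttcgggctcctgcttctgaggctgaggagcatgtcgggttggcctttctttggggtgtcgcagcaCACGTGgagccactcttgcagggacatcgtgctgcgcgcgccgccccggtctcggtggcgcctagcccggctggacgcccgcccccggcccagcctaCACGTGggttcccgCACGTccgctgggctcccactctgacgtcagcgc
Ldhb: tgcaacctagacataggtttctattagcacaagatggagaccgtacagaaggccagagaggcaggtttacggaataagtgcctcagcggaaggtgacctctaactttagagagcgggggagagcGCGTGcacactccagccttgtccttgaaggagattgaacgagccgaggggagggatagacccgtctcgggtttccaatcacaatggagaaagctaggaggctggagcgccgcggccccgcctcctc
Pdk2: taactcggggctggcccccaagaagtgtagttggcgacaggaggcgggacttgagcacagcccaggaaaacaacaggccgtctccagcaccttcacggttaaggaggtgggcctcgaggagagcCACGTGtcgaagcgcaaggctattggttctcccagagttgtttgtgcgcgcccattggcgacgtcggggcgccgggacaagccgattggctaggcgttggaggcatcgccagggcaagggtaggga
Eno3: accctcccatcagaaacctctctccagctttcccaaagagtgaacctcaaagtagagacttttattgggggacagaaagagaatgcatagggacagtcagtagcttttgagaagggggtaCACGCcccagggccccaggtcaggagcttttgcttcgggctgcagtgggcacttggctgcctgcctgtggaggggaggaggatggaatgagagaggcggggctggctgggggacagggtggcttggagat
The core was present 5 times in the Ldha window, where it forms 2 copies of CACGTG, a palindrome that holds the core on both strands. It was present 2 times in the Hk2, Pgk1 and Pdk2 windows, the last again as a CACGTG, and 1 time in the Ldhb and Eno3 windows. Ldha and Pdk2 each have a second window in the table, that of Ldha with 1 core and no CACGTG and that of Pdk2 with no core. The bases after the RefSeq start of the printed Ldha, Pdk2 and Eno3 windows were not found in a GENCODE transcript of the gene. Those of the second Ldha and Pdk2 windows were. The RefSeq table held 33 of the 34 members, Slc2a3 being the exception, with 50 windows in all. The core was found in 39 of the 50 member windows (78.0%), against 56.2% of 11862 windows of the tested genes and 38.6% of all 32851 windows in the table. With the 50 bases after the start included, it was again in 78.0% of member windows and in 62.3% of those of the tested genes. By knockout call, it was in 25 of the 32 windows of members that fell, 6 of the 8 of members that rose and 8 of the 10 of members that were not called. CACGTG was in 12% of member windows against 8.29% for the tested genes. TTCNNNGAA, the spaced palindrome that STAT proteins bind, was in 4.0% against 5.97%, the member windows being 1 of Aldoc and 1 of Pfkm. Matches were counted on both strands with overlaps, are letters in a window and were not tested for binding. The median GC content was 62.0% in member windows and 60.7% in those of the tested genes.

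Stat3 (chromosome 11, 100885098 to 100939540, minus strand), read first as a check of the labels, lay at 30.7 to 38.4 TPM in the knockout and 99.8 to 132.9 TPM in wild-type DMSO TH17 libraries. It lay at 152.2 to 160.9 TPM with Srci1 in TH17 cells, 129.6 to 139.9 TPM in DMSO Treg cells and 75.2 to 78.3 TPM with Srci1 in Treg cells. Stat3 was thus 3.53-fold lower in the knockout (limma adjusted p = 3.75e-09), and gene-level TPM does not show which exons were read. Cd3e, Cd4, Thy1 and Trac, which mark CD4 T cells, lay at or above 185.1 TPM in every library. Il17a was at 1279.8 to 1378 TPM in wild-type DMSO TH17 libraries, against 36.5 to 42.5 TPM with Srci1 and 8.76 to 11.7 TPM in the knockout. Foxp3 lay at 192.0 to 224.7 TPM in the knockout and 194.0 to 208.7 TPM in TH17 cells with Srci1, above the 127.1 to 131.0 TPM of the DMSO Treg libraries, so the TH17 name of those groups is that of the culture. The summed level of 13 markers of CD8 T, B, myeloid, NK and red blood cells was 7.6 to 8.82 TPM in wild-type DMSO TH17, 19.7 to 24.0 TPM in knockout, 10.7 to 15.6 TPM in Srci1 TH17, 7.97 to 10.1 TPM in DMSO Treg and 23.8 to 34.1 TPM in Srci1 Treg libraries. Of the 13, 5 reached a mean of 1 TPM in the knockout, among them Cd8a, Cd8b1 and Itgam, and 3 in Srci1 Treg cells, among them Hba-a1 at 16.7 to 25.6 TPM, and Ncr1 was at 0 in every library. The ribosomal protein share of TPM was 30.9 ± 1.37% in the knockout, 30.3 ± 2.16% in DMSO TH17, 23.7 ± 0.629% in Srci1 TH17, 26.9 ± 0.215% in DMSO Treg and 22.3 ± 0.527% in Srci1 Treg libraries (mean ± SD, n = 3). The part of either measure in the results below was not tested. In bulk RNA, fewer cells with a transcript and less of it per cell cannot be told apart. Depth is unknown, since TPM sums to the same total in every library.

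Together the 34 transcripts made up 2.39 ± 0.0319% of TPM in wild-type DMSO TH17 cells, 2.22 ± 0.0464% after Srci1 and 0.914 ± 0.046% without STAT3 (mean ± SD, n = 3 here and below). The share was 2.20 ± 0.041% in DMSO Treg libraries and 1.46 ± 0.0585% with Srci1. Most of this sum is 12 abundant genes that averaged at least 100 TPM over all libraries, with Gapdh the highest. The knockout group was the lowest of the 5 for 20 members, and for all 20 of them its libraries did not overlap those of the group above. Over all 12800 genes tested, the knockout was lowest for 27.1%, and lowest without overlap for 9.94%. Wild-type DMSO TH17 was the highest group for 16 members, but only for 6 without overlap with the group below it, against 10.7% and 3.33% of all genes tested.

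**Figure D1:**
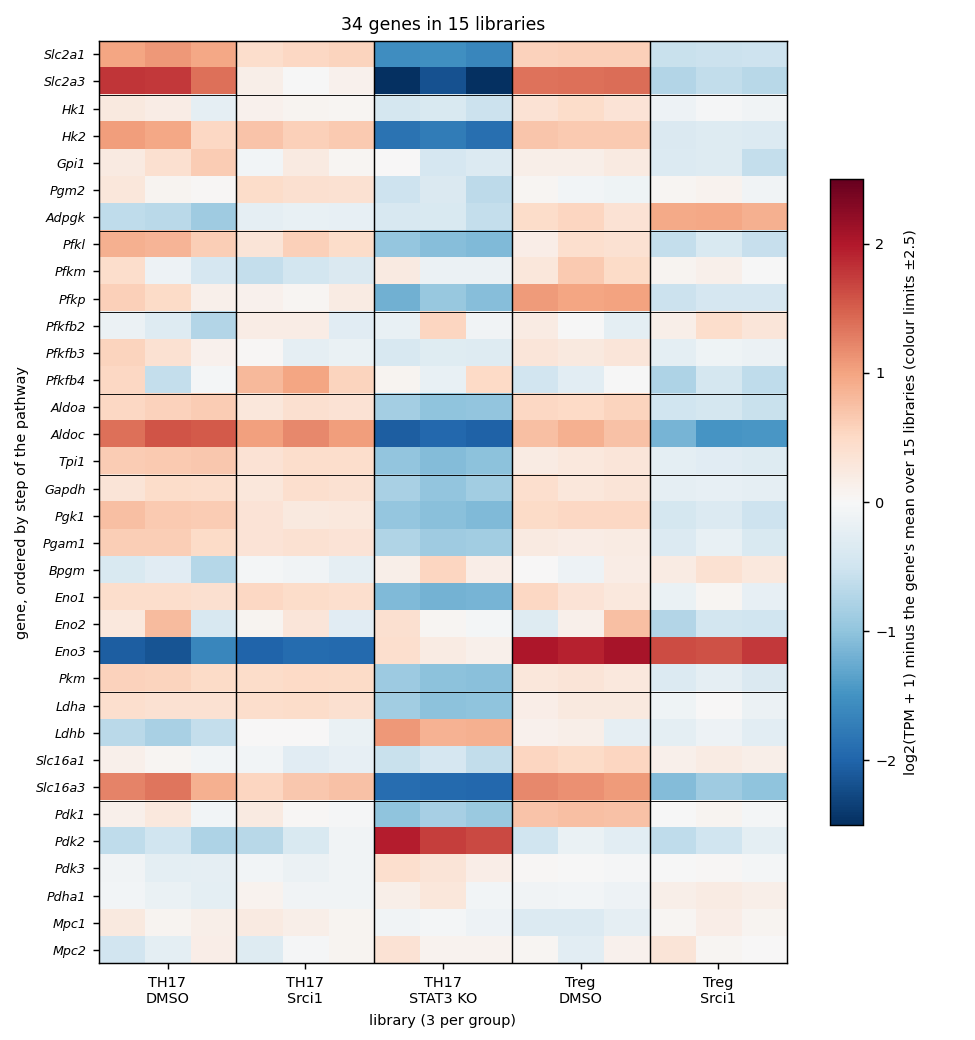
Each row is 1 of the 34 genes in pathway order, each column 1 library, and colour is log2(TPM + 1) minus that gene's mean over the 15 libraries, with thin lines between functional groups. The knockout columns are blue for most genes, with Ldhb, Eno3, Pdk2 and Bpgm among those that are not, and Eno3 is red in both Treg groups.

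Glucose enters T cells through the facilitative transporters GLUT1 and GLUT3, encoded by Slc2a1 (ENSMUSG00000028645.11, chromosome 4, 119108711 to 119137983, plus strand of GRCm38, as for all positions here) and Slc2a3 (ENSMUSG00000003153.10, chromosome 6, 122727809 to 122801640, minus strand). Slc2a1 stood at 144, 154 and 141 TPM in the wild-type DMSO TH17 libraries and at 23.7, 24.0 and 22.6 TPM in the knockout. With Srci1, its TH17 levels were 96.9, 104 and 106 TPM. In Treg cells the DMSO libraries held 108, 108 and 108 TPM and the Srci1 libraries 48.6, 49.2 and 49.9 TPM. No 2 groups of Slc2a1 overlapped, Srci1 TH17 and DMSO Treg lying closest. Slc2a3 was at 155, 154 and 116 TPM in wild-type DMSO TH17 cells, with replicate 3 the low one, and at 6.80, 9.05 and 6.65 TPM in the knockout. The Srci1 TH17 libraries held 49.3, 43.7 and 48.0 TPM, the DMSO Treg libraries 115, 117 and 118 TPM and the Srci1 Treg libraries 26.1, 28.6 and 26.8 TPM. The groups thus stood in the same order for both transporters, but Slc2a3 covered a wider range and its DMSO Treg and DMSO TH17 libraries overlapped.

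Hexokinases trap glucose in the cell as glucose phosphate. Hk2 (ENSMUSG00000000628.10, chromosome 6, 82725025 to 82774454, minus strand), the inducible form, was at 61.5, 58.3 and 42.6 TPM in wild-type DMSO TH17 libraries and 7.40, 7.97 and 7.20 TPM in the knockout. It was at 48.8, 44.6 and 46.6 TPM with Srci1 in TH17 cells, inside the range of the DMSO libraries, of which replicate 3 was again the lowest. The DMSO Treg libraries held 47.7, 46.8 and 46.6 TPM and the Srci1 Treg libraries 22.5, 23.1 and 23.0 TPM, with no overlap. Hk1, the more abundant and widely expressed form, moved over a narrower range, from 81.8 ± 4.05 TPM in the knockout to 148 ± 6.85 TPM in DMSO Treg cells. An antisense gene, Hk1os, overlaps Hk1, and the strand setting of the counting is not stated in the labels, so the reads of the pair may be mixed. Adpgk, which encodes an ADP-dependent glucokinase, ran the other way from Hk2 in Treg cells, at 64.4, 67.4 and 59.9 TPM with DMSO and 90.5, 91.9 and 87.0 TPM with Srci1. Gpi1, the isomerase of glucose phosphate, ranged from 343 ± 34.6 TPM in Srci1 Treg to 612 ± 87.1 TPM in DMSO TH17 cells. Pgm2, a phosphopentomutase with some activity on glucose phosphates, ranged from 10.8 ± 1.22 TPM in the knockout to 21.3 ± 0.653 TPM in Srci1 TH17 cells.

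Phosphofructokinase commits sugar to glycolysis, and its 3 genes encode the liver (Pfkl), muscle (Pfkm) and platelet (Pfkp) forms. Pfkp (ENSMUSG00000021196.14, chromosome 13, 6579768 to 6648777, minus strand) was the most abundant of them in every group. It was at 224, 207 and 162 TPM in wild-type DMSO TH17, 64.3, 76.8 and 70.5 TPM in knockout and 159.7, 153 and 171 TPM in Srci1 TH17 libraries, the last overlapping the low end of the DMSO range. DMSO Treg libraries were the highest, at 311, 295 and 302 TPM, and Srci1 Treg libraries held 102, 110.2 and 111 TPM. Pfkl stood in the order DMSO TH17 (123 ± 12.4 TPM), Srci1 TH17 (98.0 ± 9.21 TPM), DMSO Treg (88.9 ± 8.18 TPM), Srci1 Treg (49.3 ± 3.98 TPM) and knockout (33.8 ± 1.70 TPM), with Srci1 TH17 and DMSO Treg overlapping. Pfkm was low, with library values between 7.84 and 20.2 TPM. The PFKFB enzymes set the level of the fructose bisphosphate that activates phosphofructokinase. Pfkfb3, the form known from activated T cells, was at 30.1, 26.5 and 21.8 TPM in DMSO TH17 cells, 14.9, 16.1 and 15.8 TPM in the knockout and 20.5, 17.2 and 17.8 TPM with Srci1. Pfkfb2 and Pfkfb4 stayed under 12 TPM in every library and scattered widely within groups.

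Aldolase splits the hexose into triose phosphates, which Tpi1 interconverts. Aldoc (ENSMUSG00000017390.15, chromosome 11, 78322968 to 78327781, plus strand), better known from brain, had one of the widest ranges, at 70.2, 80.3 and 77.6 TPM in wild-type DMSO TH17 and 5.57, 5.95 and 5.68 TPM in knockout libraries. It was at 54.7, 61.2 and 55.1 TPM with Srci1 in TH17 cells, all below the DMSO libraries. In Treg cells it was at 44.9, 49.7 and 44.1 TPM with DMSO and 11.2, 8.82 and 8.89 TPM with Srci1. Aldoa, the main form, ranged from 708 ± 42.1 TPM in the knockout to 2047 ± 80.9 TPM in DMSO TH17 cells, and Tpi1 from 337 ± 12.2 to 1092 ± 18.0 TPM. Srci1 Treg libraries were the next lowest for both.

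The later steps recover ATP and end in pyruvate. Gapdh (ENSMUSG00000057666.18, chromosome 6, 125161715 to 125166467, minus strand), the dehydrogenase often used as a reference gene, was at 7279.7, 7991 and 7911 TPM in DMSO TH17 cells. In the knockout it was at 3295, 2935 and 3190.5 TPM, and with Srci1 in TH17 cells at 7030.3, 7766 and 7509 TPM. DMSO Treg libraries held 7748, 7016 and 7256 TPM and Srci1 Treg libraries 4983, 5038 and 4937 TPM. The DMSO TH17, Srci1 TH17 and DMSO Treg ranges overlapped, while the knockout and Srci1 Treg libraries lay below them. Pgk1, Pgam1, Eno1 and Pkm, which encode the phosphoglycerate kinase and mutase, the main enolase and the pyruvate kinase, had the knockout lowest and Srci1 Treg next. Their knockout means were 608 ± 28.4, 285 ± 14.2, 816 ± 24.6 and 916 ± 45.5 TPM, against 2006 ± 85.0, 755 ± 38.0, 2439.7 ± 36.4 and 2640.3 ± 89.6 TPM in DMSO TH17 cells. Eno1b, a near copy of Eno1, was at 2.55 to 11.5 TPM and the pseudogene Pgam1-ps2 at 2.46 to 10.6 TPM, low beside their parents.

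Eno3 (ENSMUSG00000060600.15, chromosome 11, 70657202 to 70662513, plus strand), the enolase known from muscle, departed from that pattern. It was at 7.76, 7.14 and 10.8 TPM in wild-type DMSO TH17 libraries and 8.02, 8.53 and 8.47 TPM with Srci1. Knockout libraries held 47.4, 40.9 and 38.7 TPM. DMSO Treg libraries held 147, 136 and 149.8 TPM and Srci1 Treg libraries 111, 108 and 122 TPM. The 2 wild-type TH17 groups overlapped and every other group lay above them. Bpgm, which diverts bisphosphoglycerate of the main pathway into a shunt, was highest in the knockout at 15.02 ± 2.65 TPM. It was lowest in DMSO TH17 cells at 8.55 ± 1.44 TPM, and the knockout and Srci1 Treg libraries overlapped. Eno2, the neuronal enolase, stayed between 4.16 and 13.8 TPM, with the Srci1 Treg libraries below the other, overlapping groups.

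Lactate dehydrogenase turns pyruvate into lactate and back, Ldha encoding the M subunit and Ldhb the H subunit. Ldha (ENSMUSG00000063229.15, chromosome 7, 46841475 to 46855627, plus strand) was at 2987, 2918 and 2927 TPM in DMSO TH17, 1226, 1094 and 1110.1 TPM in knockout and 3049, 3059 and 2947 TPM in Srci1 TH17 libraries. Its levels in Treg libraries were 2518, 2647 and 2640.2 TPM with DMSO and 2067, 2238 and 2022 TPM with Srci1. Ldhb (ENSMUSG00000030246.11, chromosome 6, 142490249 to 142507957, minus strand) was at 15.7, 14.2 and 16.6 TPM in DMSO TH17 and 55.2, 47.8 and 48.4 TPM in knockout libraries, the reverse order of Ldha. With Srci1 the TH17 libraries held 25.8, 25.7 and 22.8 TPM, all above DMSO and all below the knockout. The Treg libraries held 27.7, 28.4 and 21.8 TPM with DMSO and 21.6, 23.4 and 21.1 TPM with Srci1, with overlap.

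Lactate leaves through MCT1 and MCT4, the products of Slc16a1 and Slc16a3 (ENSMUSG00000025161.16, chromosome 11, 120948480 to 120960868, plus strand). Slc16a3 was at 356, 384 and 280.5 TPM in DMSO TH17 and 39.4, 38.3 and 37.8 TPM in knockout libraries. It was at 219, 241 and 250.2 TPM with Srci1 in TH17 cells, below all 3 DMSO libraries. In Treg cells it was at 350.0, 335 and 314 TPM with DMSO, like DMSO TH17 cells, and at 70.2, 80.6 and 74.7 TPM with Srci1. Slc16a1 covered a narrower range, from 24.1 ± 1.73 TPM in the knockout to 50.4 ± 1.32 TPM in DMSO Treg cells.

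The PDK kinases hold pyruvate back from oxidation. Pdk1 (ENSMUSG00000006494.11, chromosome 2, 71873224 to 71903858, plus strand), a known HIF target, was at 50.5, 55.4 and 43.9 TPM in DMSO TH17 and 22.5, 25.5 and 23.9 TPM in knockout libraries. The Srci1 TH17 libraries held 54.1, 47.2 and 45.4 TPM, within the DMSO range. Treg libraries held 76.7, 78.3 and 76.9 TPM with DMSO and 45.6, 48.4 and 44.4 TPM with Srci1. Pdk2 (ENSMUSG00000038967.13, chromosome 11, 95026258 to 95041354, minus strand) was instead high in the knockout alone, at 24.2, 20.4 and 19.2 TPM, while the other 12 libraries lay between 2.78 and 5.06 TPM. Pdk3 and Pdha1, the latter a subunit of pyruvate dehydrogenase, varied less, with group means of 30.9 to 44.0 TPM and 78.7 to 99.2 TPM. Mpc1 and Mpc2 form the mitochondrial pyruvate carrier. Mpc1 ranged from 78.3 ± 3.38 TPM in DMSO Treg to 108 ± 6.77 TPM in DMSO TH17 cells, and is uncertain because the near-identical Mpc1-ps was itself listed at 13.6 to 45.5 TPM. Mpc2 ranged from 24.9 ± 6.09 to 32.0 ± 3.82 TPM, with overlap between groups.

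**Figure D2:**
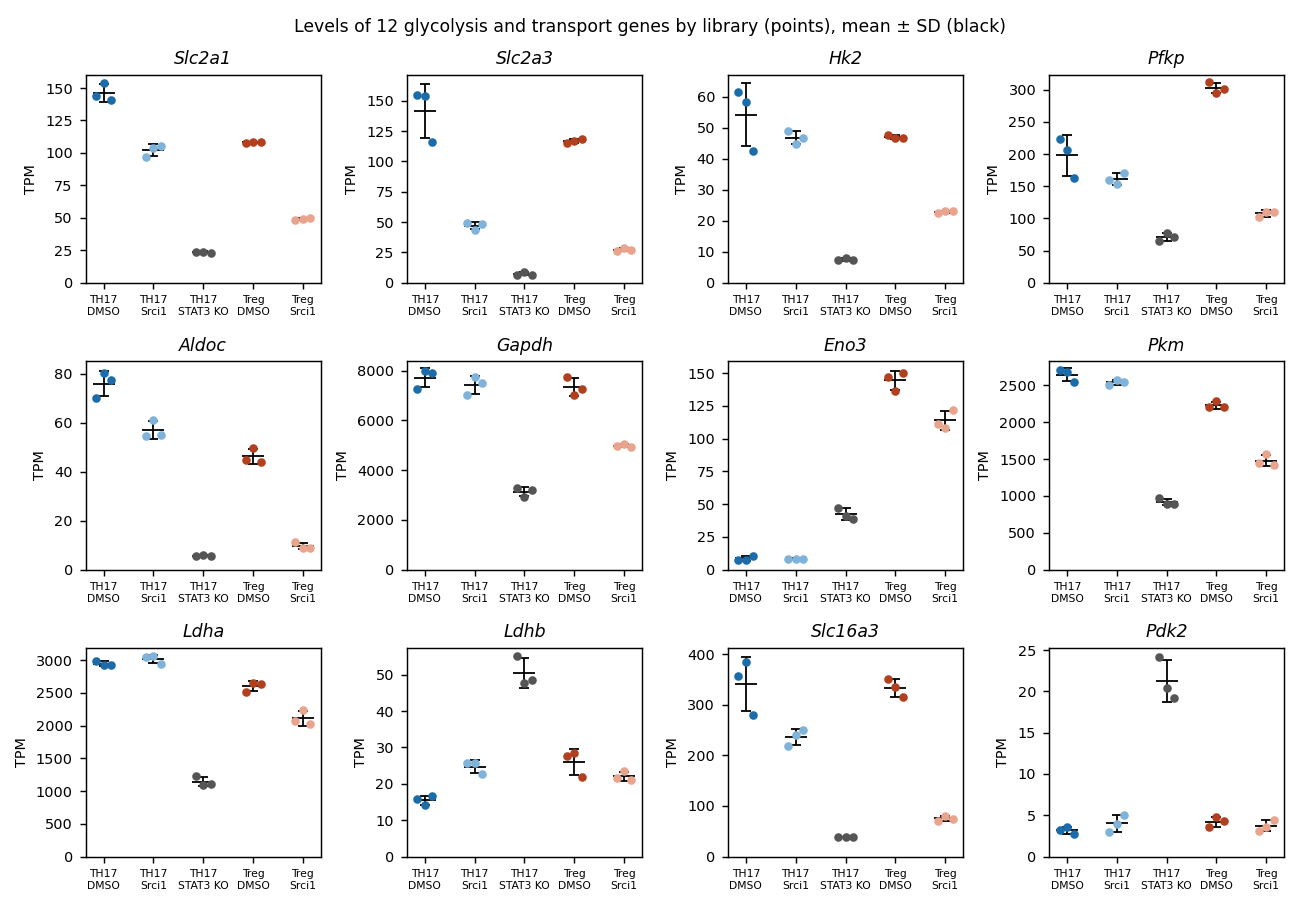
TPM (vertical axes, linear from 0) of 12 genes in each library (points), with the group mean and SD in black and the 5 groups along the horizontal axes. The knockout libraries are the lowest for Slc2a1, Slc2a3, Hk2, Pfkp, Aldoc, Gapdh, Pkm, Ldha and Slc16a3 and the highest for Ldhb and Pdk2.

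Loss of STAT3 went with lower transcripts from glucose entry to lactate exit. Of the 34 members, 22 fell and 7 rose in the knockout relative to wild-type DMSO TH17 cells, and 5 were not called (limma on log2(TPM + 1), Benjamini-Hochberg adjusted p under 0.05). Among all 12800 genes tested, 18.9% were called lower and 30.9% higher. Folds here are ratios of mean TPM, and log2 differences understate change in low genes. Both glucose transporters fell, Slc2a3 18.9-fold (limma adjusted p = 4.41e-12) and Slc2a1 6.23-fold (adjusted p = 2.73e-13). Aldoc fell 13.3-fold, Slc16a3 8.83-fold and Hk2 7.19-fold (limma adjusted p = 2.38e-12, 9.69e-12 and 1.33e-10). Among the abundant enzymes, Pgk1 fell 3.30-fold, Tpi1 3.24-fold, Eno1 2.99-fold, Aldoa 2.89-fold, Pkm 2.88-fold, Pgam1 2.65-fold, Ldha 2.57-fold and Gapdh 2.46-fold, with limma adjusted p from 2.06e-12 for Tpi1 to 3.27e-10 for Gapdh. All 12 members that averaged at least 100 TPM were among the 22. The share called lower among all genes of that level was not counted, so nothing is read from this.

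The other 9 that fell were Pfkl (3.63-fold), Pfkp (2.81-fold), Pdk1 (2.08-fold), Pfkfb3 (1.67-fold), Pgm2 (1.60-fold), Gpi1 (1.58-fold), Slc16a1 (1.49-fold), Hk1 (1.45-fold) and Mpc1 (1.19-fold), at limma adjusted p from 2.27e-09 for Pfkl to 0.00648 for Mpc1. The 7 that rose were Pdk2 (6.71-fold, limma adjusted p = 3.40e-08), Eno3 (4.95-fold, 2.78e-09), Ldhb (3.25-fold, 1.86e-08), Bpgm (1.76-fold, 5.31e-04), Pdk3 (1.43-fold, 9.18e-05), Pdha1 (1.23-fold, 0.00909) and Adpgk (1.21-fold, 0.012). Pfkm, Pfkfb2, Pfkfb4, Eno2 and Mpc2 were not called. The median log2 difference was -0.68 for the members and 0.13 for all genes tested. The libraries of the 2 groups did not overlap for 29 members, 22 of them lower in the knockout, where 18.9% of all genes tested were lower and 32.5% higher without overlap. Cd8a, a marker of CD8 T cells, stood at 4.18 to 5.36 TPM in the knockout and 0 to 0.05 TPM in its controls, and the part of other cells in the result was not tested. The calls of Adpgk (limma adjusted p = 0.0981) and Pdha1 (0.058) ended under median-of-ratios scaling, which turned the split over all genes from 3952 higher and 2414 lower into 3229 and 3289.

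**Figure D3:**
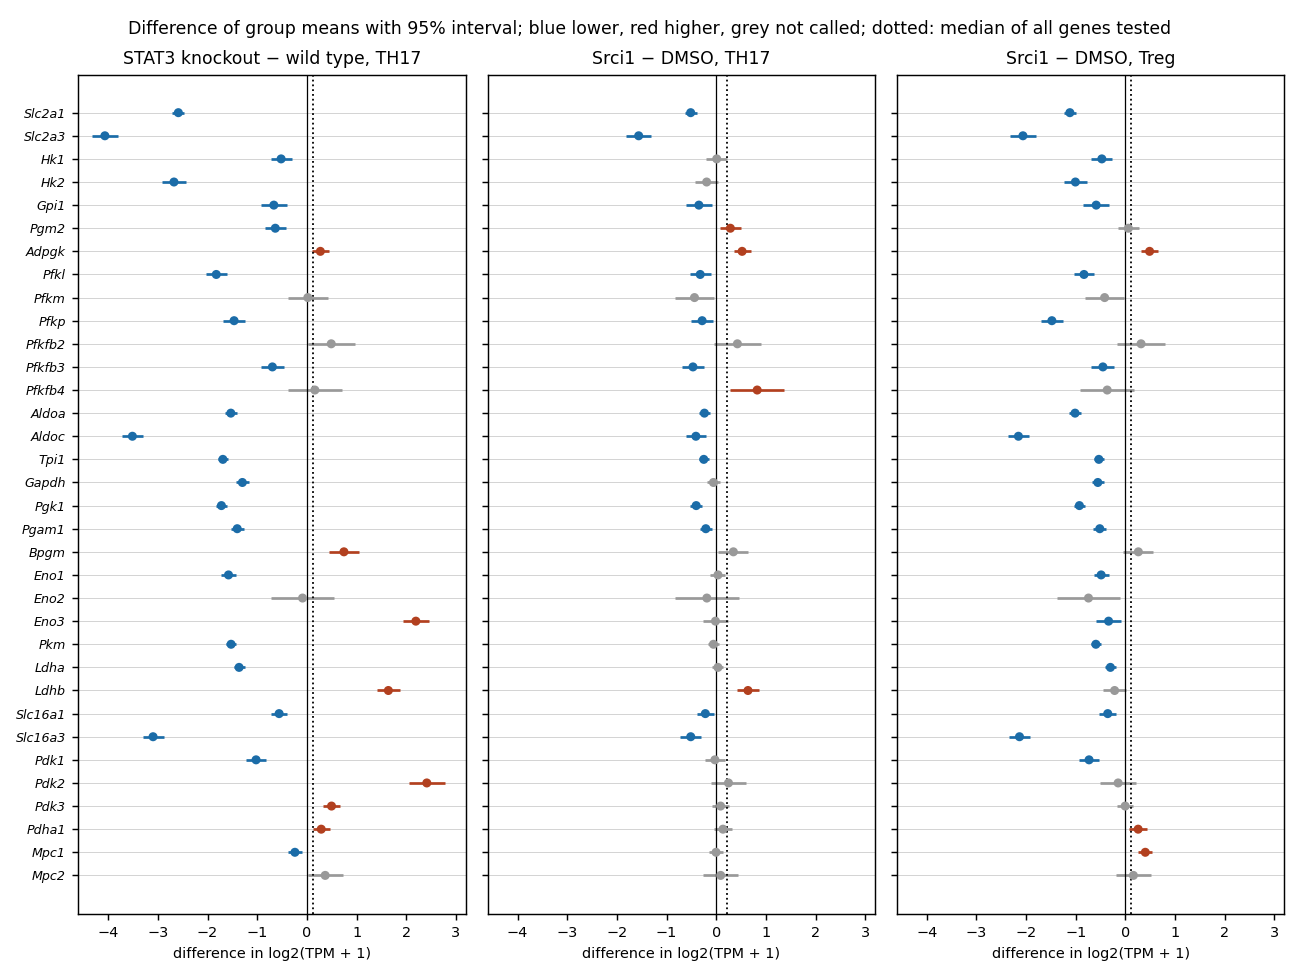
Difference of group means in log2(TPM + 1) with its 95% interval for each of the 34 genes in the knockout, Srci1 TH17 and Srci1 Treg comparisons. Blue marks genes called lower, red genes called higher and grey genes not called, and the dotted line is the median of all genes tested. The knockout panel runs from -4.07 for Slc2a3 to 2.41 for Pdk2, and the Srci1 TH17 panel from -1.56 for Slc2a3 to 0.83 for Pfkfb4.

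In TH17 cells given Srci1, both glucose transporters, several enzymes of the upper pathway, Pgk1 and Pgam1 of the later steps and both lactate exporters fell. Some of these calls, that of Slc16a1 among them, ended in other fits given below. This comparison shares its DMSO libraries with the knockout one. Of the 34, 13 fell, 4 rose and 17 were not called, where 7.08% of all genes tested were called lower and 33.8% higher. Slc2a3 had the largest fall, 3.01-fold (limma adjusted p = 4.46e-07). Slc16a3 fell 1.44-fold (0.00115), Slc2a1 1.43-fold (1.13e-05), Pfkfb3 1.41-fold (0.00362), Aldoc 1.33-fold (0.00426) and Pgk1 1.32-fold (7.99e-05). Tpi1, Aldoa, Pgam1, Pfkl, Gpi1, Pfkp and Slc16a1 fell by 1.16- to 1.28-fold (limma adjusted p from 7.90e-04 for Tpi1 to 0.0386 for Slc16a1). Adpgk rose 1.45-fold, Ldhb 1.59-fold, Pfkfb4 1.83-fold and Pgm2 1.23-fold (limma adjusted p = 2.17e-04, 4.04e-04, 0.0188 and 0.0356). After quantile normalization the Aldoa difference was -0.0277 and no longer called (limma adjusted p = 0.742).

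Ldha, Hk2 and Pdk1 were not called in that comparison. Ldha differed by 0.04 on the log2 scale (95% interval -0.08 to 0.15, limma adjusted p = 0.615), a sign that flips to -0.24 under median-of-ratios scaling and to -0.09 without ribosomal protein and mitochondrial genes. After quantile normalization Ldha was instead called higher, at 0.25 (limma adjusted p = 0.00156). Hk2 differed by -0.19 (-0.43 to 0.04, adjusted p = 0.179) and Pdk1 by -0.03 (-0.22 to 0.17, 0.848). Both were called lower under median-of-ratios scaling, Hk2 at limma adjusted p = 0.000199 and Pdk1 at 0.00575, and Hk2 also without DMSO TH17 replicate 3, at 0.00167. Gapdh, Eno1, Pkm and Hk1 were not called either. The median difference was -0.06 for the members and 0.21 for all genes. Median-of-ratios scaling, which brings the latter to -0.01, gave 2 members higher and 20 lower, and 2114 genes higher and 2115 lower in place of 4324 and 906. Rescaling without ribosomal protein and mitochondrial genes gave an all-gene median of 0.12, with 3101 genes higher and 1338 lower. Among the members it gave 3 higher and 16 lower. The ribosomal protein share was lower with Srci1, and its part was otherwise not tested. The calls of Gpi1, Pgm2, Pfkp, Pfkl, Pfkfb3, Pfkfb4 and Slc16a1 ended when only these 6 libraries were fitted (limma adjusted p 0.0553 to 0.137). Of the 6 fits that left out 1 of these libraries, calls ended in 5 for Pgm2. They ended in 4 each for Gpi1, Pfkp and Slc16a1, in 3 for Pfkl and in 2 for Pfkfb4.

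In Treg cells given Srci1, transcripts from glucose entry to lactate exit fell. Of the 34, 21 fell, 3 rose and 10 were not called, against 10.0% lower and 17.1% higher among all genes tested. Aldoc fell 4.79-fold, Slc16a3 4.43-fold, Slc2a3 4.30-fold, Pfkp 2.81-fold, Slc2a1 2.20-fold, Hk2 2.06-fold and Aldoa 2.02-fold (limma adjusted p from 4.32e-09 for Aldoc to 1.62e-05 for Hk2). Pgk1 fell 1.90-fold, Pdk1 1.68-fold, Pkm 1.51-fold, Gapdh 1.47-fold, Pfkfb3 1.39-fold and Ldha 1.23-fold, the last at limma adjusted p = 7.07e-04. Pfkl, Gpi1, Tpi1, Pgam1, Hk1, Eno1, Slc16a1 and Eno3 fell by 1.27- to 1.80-fold (limma adjusted p from 1.88e-06 for Tpi1 to 0.0498 for Eno3). All 12 members averaging at least 100 TPM fell here too, though the Ldha call ended after quantile normalization (-0.13, limma adjusted p = 0.0637). Again the share among all genes of that level was not counted. Adpgk (1.41-fold, limma adjusted p = 5.65e-04), Mpc1 (1.32-fold, 4.70e-04) and Pdha1 (1.20-fold) rose. The median difference was -0.48 for the members and 0.11 for all genes. The calls of Eno3 and Pdha1 (limma adjusted p = 0.033) ended whichever of the 6 libraries was left out, at 0.0626 to 0.141 and 0.0658 to 0.0977. Median-of-ratios scaling gave 2 members higher and 23 lower, and 1360 genes higher and 1765 lower in place of 2192 and 1285. The sum of other-cell markers was also highest in the Srci1 Treg libraries, at 23.8 to 34.1 TPM. Red blood cell markers gave 16.7 to 28 TPM of it, mostly Hba-a1 at 16.7 to 25.6 TPM, with Hbb-bs at 0 to 4.96 TPM. CD8 markers there summed to 4.95 to 6.14 TPM, against 11.2 to 14.8 TPM in the knockout. B and myeloid markers also lay below those of the knockout, and the part of other cells was not tested.

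The TH17 and Treg comparisons with Srci1 have no library in common. All 13 members that fell in TH17 cells also fell in Treg cells, which is 100% of the TH17 list and 61.9% of the Treg list, against 48.9% and 34.5% for the genes called lower among all genes tested. Adpgk was the 1 member called higher in both. The knockout and the Srci1 Treg comparisons also share no library, and 20 members fell in both, 90.9% of those that fell in the knockout and 95.2% of those that fell in Treg cells. Over all genes tested those shares were 24.7% and 46.5%.

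The Srci1 difference itself differed between the cultures. Taken as the TH17 difference minus the Treg difference, it was called higher for 18 members and lower for 1, against 11.3% and 2.95% of all genes tested. A value above 0 means a smaller fall, or a rise, in TH17 cells. It was 1.75 ± 0.136 (SE) for Aldoc, 1.62 ± 0.139 for Slc16a3, 1.20 ± 0.142 for Pfkp, 0.82 ± 0.154 for Hk2, 0.78 ± 0.0749 for Aldoa and 0.61 ± 0.0785 for Slc2a1 (limma adjusted p = 2.57e-06, 5.96e-06, 9.71e-05, 0.00298, 1.68e-05 and 1.86e-04). Mpc1 was the 1 member with a called negative value, -0.40 ± 0.0909 (adjusted p = 0.0097). Slc2a3, the gene that fell most in TH17 cells, was not called (0.50 ± 0.167, limma adjusted p = 0.0615). It was called under 4 other settings, median-of-ratios scaling (limma adjusted p = 0.0396), quantile normalization (0.0267), only the compared groups (0.0391) and array weights (0.0249), and without DMSO TH17 replicate 1 (0.0413). Nor was Pfkfb3 (-0.01 ± 0.151, adjusted p = 0.973). The calls of Pfkl, Pfkfb4, Tpi1, Gapdh, Pgam1, Eno1 and Ldha ended under median-of-ratios scaling, with limma adjusted p from 0.0745 to 0.518. With Slc2a3 gained, 12 members were higher and 1 lower there. Over all genes the split went from 1443 higher and 378 lower to 1139 and 701. Beside it stand the ribosomal protein shares, lower with Srci1 by more in TH17 than in Treg cells. Rescaling without ribosomal protein and mitochondrial genes gave 1299 genes higher and 507 lower, and 15 members higher and 1 lower. The part of these shares was otherwise not tested.

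**Figure D4:**
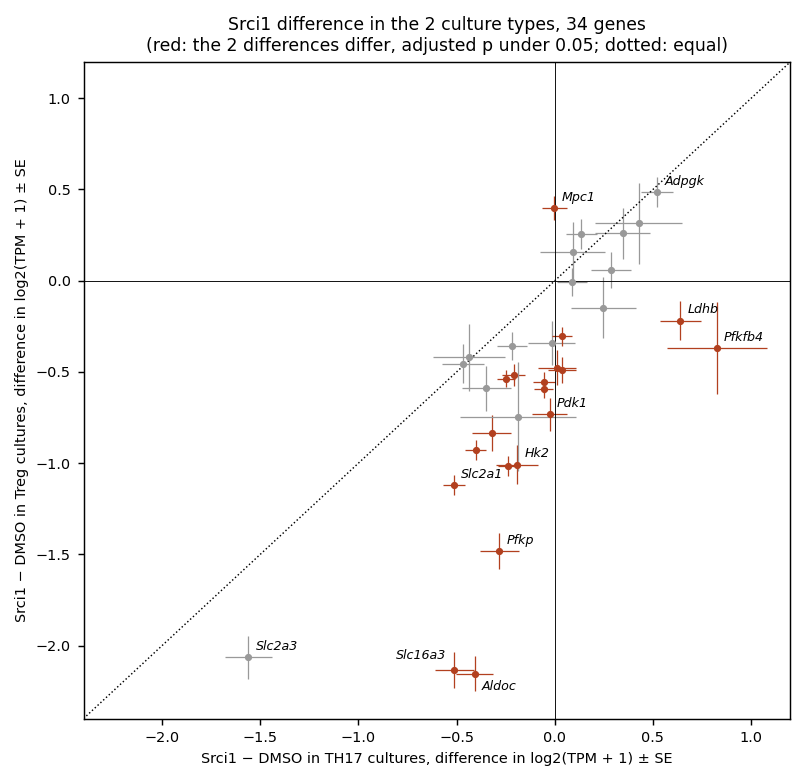
The Srci1 difference in TH17 cultures (horizontal) against that in Treg cultures (vertical), both in log2(TPM + 1) with SE bars, for the 34 genes, red where the pair differed by the test of the difference. Most points lie below the dotted line of equality, with Aldoc and Slc16a3 near -2.1 in Treg cultures and Slc2a3 low in both.

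Treg and TH17 cells given DMSO were much closer to each other than either was to the knockout in summed level. Of the 34, 9 were higher and 9 lower in Treg cells and 16 were not called, against 32.3% higher and 12.5% lower among all genes tested. Eno3 was 16.9-fold higher (limma adjusted p = 1.05e-11) and Adpgk 2.31-fold (4.43e-08). Ldhb, Pdk1, Pfkp, Bpgm, Pfkm, Slc16a1 and Hk1 were 1.24- to 1.68-fold higher (limma adjusted p from 6.98e-05 for Pdk1 to 0.0346 for Pfkm). Aldoc (1.64-fold), Pfkl, Mpc1, Slc2a1, Tpi1, Pgam1, Pkm, Pgk1 and Ldha (1.13-fold) were lower (limma adjusted p from 8.07e-06 for Tpi1 to 0.0122 for Ldha), Slc2a1 by 1.35-fold. The calls of Hk1, Pfkm and Bpgm ended when only these 6 libraries were fitted (limma adjusted p 0.0555 to 0.13). After quantile normalization the calls of Hk1, Pfkm, Bpgm, Pgk1 and Ldha ended (limma adjusted p 0.0574 for Pgk1 to 0.264 for Pfkm), and that of Ldha also without DMSO Treg replicate 1 (0.054). Slc2a3 (-0.26 ± 0.118), Hk2 (-0.18 ± 0.109), Pfkfb3 (-0.06 ± 0.107) and Slc16a3 (-0.02 ± 0.0985) were not called (limma adjusted p = 0.0848, 0.196, 0.659 and 0.899). All 4 were called lower under median-of-ratios scaling, which gave 7 members higher and 18 lower and turned 4132 genes higher and 1605 lower into 2676 and 2798. Cytokines and the TGFβ dose differ along with the lineage and cannot be told apart from it.

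Set directly against each other, Srci1 TH17 cells had higher levels than knockout cells for most of these genes. Of the 34, 23 were higher, 5 lower and 6 not called, where 30.6% of all genes tested were called higher and 18.4% lower. Aldoc was 9.94-fold higher, Slc2a3 6.27-fold, Hk2 6.21-fold, Slc16a3 6.14-fold and Slc2a1 4.35-fold (limma adjusted p = 9.69e-12, 6.39e-10, 3.02e-10, 7.88e-11 and 2.44e-12). Ldha was 2.64-fold and Pdk1 2.04-fold higher (5.46e-11 and 5.78e-07). Tpi1, Eno1, Pkm, Pfkl, Pgk1, Aldoa, Gapdh, Pgam1 and Pfkp were 2.29- to 3.07-fold higher, and Pgm2, Pfkfb4, Hk1, Slc16a1, Gpi1, Adpgk and Mpc1 1.18- to 1.97-fold. Pfkfb3 was not called (0.23 ± 0.107, limma adjusted p = 0.095). The 5 lower were Pdk2 (5.31-fold), Eno3 (5.07-fold), Ldhb (2.04-fold), Bpgm (1.36-fold) and Pdk3 (1.34-fold), at limma adjusted p from 2.64e-09 for Eno3 to 0.0297 for Bpgm. Median-of-ratios scaling gave 19 higher and 7 lower among the members, and 3190 and 3093 in place of 3922 and 2361 among all genes. The small differences of Gpi1, Adpgk, Mpc1 and Pfkfb4 were no longer called there (limma adjusted p 0.102 to 0.382).

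Within families of enzymes that catalyse the same step, the share held by each member moved as well. Because TPM is corrected for length, such shares compare levels between genes, and as ratios within a library they do not depend on its scaling. They were not tested. Slc2a3 held 49.0 ± 3.38% of the Slc2a1 and Slc2a3 sum in DMSO TH17 cells, 24.1 ± 2.81% in the knockout and 31.5 ± 2.04% with Srci1, and in Treg cells 51.9 ± 0.247% with DMSO and 35.5 ± 1.05% with Srci1. Hk2 held 31.2 ± 0.414% of the Hk1 and Hk2 sum in DMSO TH17 and 8.42 ± 0.165% in knockout cells, with 28.3 ± 0.666% under Srci1. In Treg cells Hk2 held 24.2 ± 0.905% with DMSO and 17.8 ± 0.321% with Srci1. The balance between the inducible and the widely expressed form thus stood lowest in the knockout.

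Ldhb made up 4.22 ± 0.0729% of lactate dehydrogenase transcripts in the knockout and 0.524 ± 0.0412% in DMSO TH17 cells, so Ldha dominated in both. Slc16a1 held 9.67 ± 1.03% of the lactate transporter sum in DMSO TH17 cells and 38.5 ± 1.71% in the knockout. It held 13.2 ± 0.716% in DMSO Treg and 34.3 ± 0.950% in Srci1 Treg cells, but 11.6 ± 1.46% in Srci1 TH17 cells. In this ratio the Srci1 Treg libraries lay closer to the knockout than the Srci1 TH17 libraries did. Among the PDK kinases, Pdk2 held 23.8 ± 1.62% in the knockout and 3.77 ± 0.233% in DMSO TH17 cells, and Pdk1 26.9 ± 2.72% against 59.3 ± 2.90%. Eno3 held 5.76 ± 0.539% of enolase transcripts in DMSO Treg cells, 4.87 ± 0.374% in the knockout and 0.349 ± 0.0851% in DMSO TH17 cells.

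**Figure D5:**
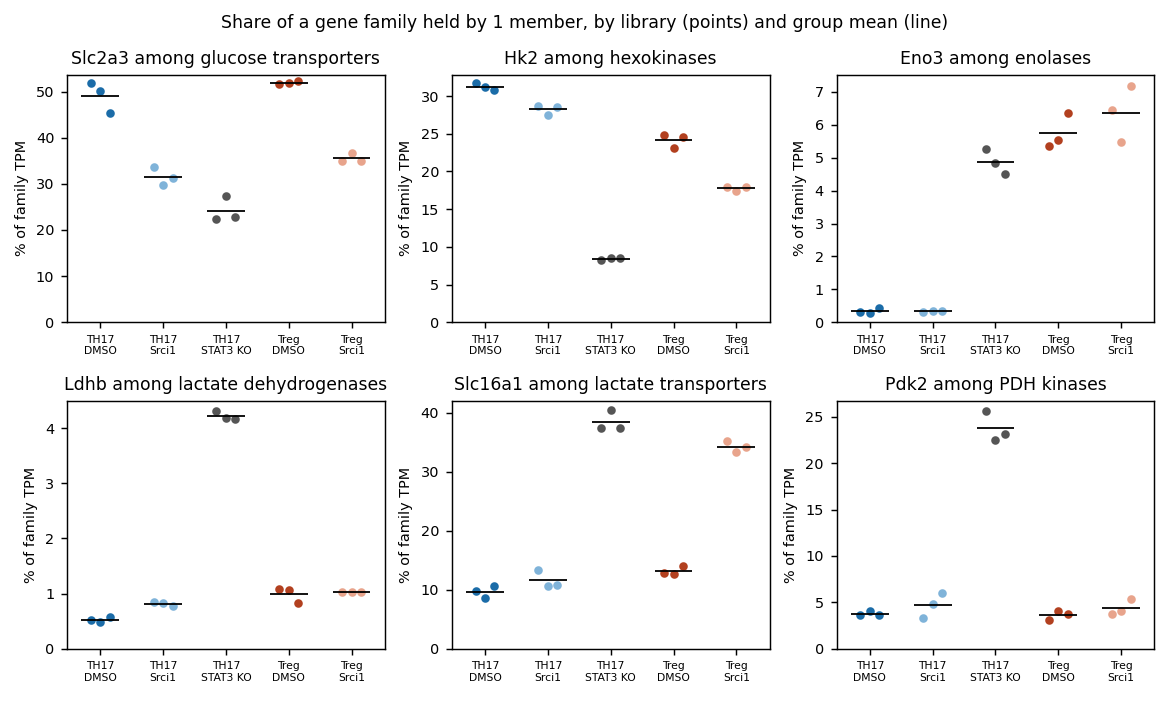
Percentage of its family's summed TPM held by 1 gene (vertical axes, from 0) in each library (points) with the group mean as a line, for 6 families. The knockout stands lowest for Slc2a3 and Hk2 and highest for Ldhb, Slc16a1 and Pdk2.

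Genes next to the pathway were counted the same way, from lists chosen by function. Counts are to be read against the shares of all genes tested, 30.9% higher and 18.9% lower in the knockout, 33.8% and 7.08% with Srci1 in TH17 cells, 17.1% and 10.0% with Srci1 in Treg cells, and 32.3% and 12.5% in Treg against TH17 cells. Rises depended on scaling, and nothing particular to a list is read from them. Of 13 tested genes of hexosamine and glycogen metabolism, 6 fell and none rose in the knockout, among them Pgm1, the main phosphoglucomutase (76.7 to 24.3 TPM), and Pygl, liver glycogen phosphorylase (3.45 to 0.363 TPM). With Srci1, 1 rose and 2 fell in TH17 cells, and 1 rose and 6 fell in Treg cells, where Pgm1 went from 74.8 to 38.6 TPM. Pygb, brain glycogen phosphorylase, was the 1 that rose in each. Median-of-ratios scaling gave none higher and 7 lower in the knockout, 1 and 5 with Srci1 in TH17 cells, and none and 7 in Treg cells. Between the DMSO groups, 2 were higher and 1 lower in Treg cells, which that scaling turned into 1 and 2. Of 8 pentose phosphate genes, 2 rose and 1 fell in the knockout, 6 rose and none fell with Srci1 in TH17 cells, 2 rose and none fell in Treg cells, and 3 were higher in Treg than TH17 cells. Under median-of-ratios scaling 1 was higher and 3 lower in the knockout, 2 and 1 with Srci1 in TH17 cells, 1 and none in Treg cells, and 2 and 1 in Treg against TH17 cells. G6pdx, which opens that pathway, rose from 50.5 to 78.2 TPM in the knockout and to 84.7 TPM with Srci1 in TH17 cells.

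Of 16 genes of the TCA cycle, 6 rose and 3 fell in the knockout, 7 rose and 1 fell with Srci1 in TH17 cells, 3 rose and none fell in Treg cells, and 7 were higher and 1 lower in Treg than TH17 cells. Under median-of-ratios scaling 4 were higher and 4 lower in the knockout, 2 and 3 with Srci1 in TH17 cells, none and 1 in Treg cells, and 4 and 1 in Treg against TH17 cells. Of 7 other genes of the pyruvate dehydrogenase complex, 2 rose and 1 fell in the knockout, 3 rose with Srci1 in TH17 cells, none was called in Treg cells, and 4 were higher in Treg than TH17 cells. Those became 1 higher and 1 lower, 2 and 1, none, and 2 higher under median-of-ratios scaling. Pdhb, the partner subunit of Pdha1, rose from 76.4 to 100.4 TPM in the knockout. Of 13 tested among 27 other glycolysis genes, 5 rose and 5 fell in the knockout, 6 rose and 1 fell with Srci1 in TH17 cells, 2 rose and 4 fell in Treg cells, and 3 were higher and 3 lower in Treg than TH17 cells. Median-of-ratios scaling gave 2 higher and 5 lower in the knockout, 2 and 2 with Srci1 in TH17 cells, none and 5 in Treg cells, and 2 and 3 in Treg against TH17 cells.

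Bsg, which encodes the chaperone that carries MCT1 and MCT4 to the membrane, was at 568, 634 and 671 TPM in DMSO TH17 and 274, 265 and 265 TPM in knockout libraries (limma adjusted p = 7.93e-10). In Treg cells it was at 485, 479 and 480.0 TPM with DMSO and 317, 331 and 307 TPM with Srci1 (limma adjusted p = 7.07e-06). In TH17 cells with Srci1 it was at 661, 719 and 704 TPM, overlapping DMSO, a log2 difference of 0.16 (limma adjusted p = 0.0482) that is below the shift of 0.21 in the median of all genes. Slc2a2, the transporter known from liver and pancreatic islets, was at 8.11, 5.88 and 6.65 TPM in Srci1 TH17 libraries and at most 0.33 TPM in the other 12 libraries (limma adjusted p = 2.27e-08 against DMSO TH17). Of 12 regulators of glycolysis, 2 rose and 4 fell in the knockout, 5 rose and 3 fell with Srci1 in TH17 cells, 2 rose and 4 fell in Treg cells, and 5 were higher and 2 lower in Treg than TH17 cells. With median-of-ratios scaling 1 regulator was higher and 4 lower in the knockout, 1 and 5 with Srci1 in TH17 cells, 1 and 5 in Treg cells, and 4 and 2 in Treg against TH17 cells. Hif1a, which encodes HIF-1α, was at 313, 272 and 211 TPM in DMSO TH17 and 48.3, 66.7 and 49.95 TPM in knockout libraries (limma adjusted p = 1.72e-08). It was at 209.5, 163 and 179.9 TPM with Srci1 in TH17 cells, 148, 129.6 and 146 TPM in DMSO Treg and 88.0, 90.5 and 97.1 TPM in Srci1 Treg libraries. Hif1a was thus highest by mean in the DMSO TH17 libraries and lowest in the knockout, as were both glucose transporters. The middle of the order differed, since Hif1a stood higher in Srci1 TH17 than in DMSO Treg libraries and both transporters the reverse. Pdk1 was highest in DMSO Treg libraries. A part of Hif1a in the levels of the members was not tested. Txnip, whose product restrains glucose uptake, went from 163 to 113 TPM with Srci1 in TH17 cells and from 139 to 80.0 TPM in Treg cells, both falls (limma adjusted p = 3.28e-05 and 1.07e-06).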

How the data were processed

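The deposited table holds TPM values per Ensembl gene for 15 poly(A) mRNA libraries, with 0 columns left unmatched to a sample. The submitters' processing notes name RSEM 1.3.3, STAR 2.7.9a and GRCm38. Annotation release, strand setting and filters: not given in the sources used here. TPM is relative, so a rise of abundant transcripts lowers the rest, and depth is unknown. Symbols matched 55154 of 55421 identifiers. Gene positions are from GENCODE M21 on GRCm38, 1-based, and promoter windows from RefSeq.

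limma 3.58.1 (R 4.3.3), with a variance trend, was fitted to log2(TPM + 1) for the 12800 genes that reached 1 TPM in 3 or more libraries, as 5 group means with 10 residual degrees of freedom. Benjamini-Hochberg adjustment ran over all genes tested at 0.05. The fit was tested on simulated data. The rule for named genes was all called members, a set of 7 members in every comparison, and up to 2 called genes of smallest adjusted p in each neighbouring list. Not every gene the rule picks is reported here. Members, lists and tests were chosen with earlier results of these data known. Alternatives were a pseudocount of 0.1, no low filter (23425 genes), a minimum of 5 TPM, median-of-ratios and quantile scaling, rescaling without the members and pathway genes or without 130 ribosomal protein and mitochondrial genes, only the compared groups, array weights, a replicate block and each library left out.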

Additional observations from a re-analysis of the deposited data

Results flagged for a closer look

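For 19 members the Srci1 difference in TH17 cultures differed from that in Treg cultures by the test of the difference itself (the interaction in limma, adjusted p under 0.05, 3 libraries in each of 4 groups), 18 higher and 1 lower, against 11.3% and 2.95% of all genes tested. Values are the TH17 difference minus the Treg difference on the log2(TPM + 1) scale. They were 0.61 for Slc2a1, 0.49 for Hk1, 0.82 for Hk2, 0.51 for Pfkl, 1.20 for Pfkp, 1.19 for Pfkfb4, 0.78 for Aldoa and 1.75 for Aldoc. In the later steps they were 0.29 for Tpi1, 0.50 for Gapdh, 0.53 for Pgk1, 0.31 for Pgam1, 0.53 for Eno1 and 0.54 for Pkm. For lactate and pyruvate they were 0.34 for Ldha, 0.86 for Ldhb, 1.62 for Slc16a3, 0.71 for Pdk1 and -0.40 for Mpc1. Ldhb and Pfkfb4 rose in TH17 cells and were not called in Treg cells, while Mpc1 rose in Treg cells and was not called in TH17 cells. The calls of Pfkl, Pfkfb4, Tpi1, Gapdh, Pgam1, Eno1 and Ldha ended under median-of-ratios scaling. Those of Hk1, Pfkl, Pfkfb4 and Pgam1 ended in 6 to 9 of the 12 fits that left out 1 library.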

How the results depend on the processing

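The counts of members that fell in the knockout (22) and with Srci1 in Treg cells (21) stayed within 1.5 times under every alternative run. With Srci1 in TH17 cells, 4 members rose and 13 fell. Median-of-ratios scaling gave 2 and 20, and fitting only the compared groups gave 2 and 8. Leaving out 1 of the 6 compared libraries gave 2 to 4 higher and 9 to 14 lower, the 2 coming without Srci1 TH17 replicate 2. Without knockout replicate 2, which enters the shared estimate of spread, 5 were higher and 13 lower. Median-of-ratios scaling also took the members lower in Treg than TH17 cells from 9 to 18. Signs turned for Ldha with Srci1 in TH17 cells (-0.24 under median-of-ratios scaling and -0.0874 without ribosomal protein and mitochondrial genes, but 0.25 and called higher after quantile normalization, limma adjusted p = 0.00156) and for Pgm2 there (-0.0108 after quantile normalization). Over the fits that left out 1 library, uncalled values crossed 0 for Pdk1 with Srci1 in TH17 cells (-0.11 to 0.0515), Pfkfb3 (-0.18 to 0.0410) and Slc16a3 (-0.15 to 0.0752) in Treg against TH17 cells, and Pfkfb3 in the TH17 minus Treg difference (-0.13 to 0.0922). The cause was not tested. Deviations of same-numbered libraries from their group means correlated at -0.171 to 0.128, with 2 of 30 pairs over 0.1. With 3 libraries per group, this cannot show whether same-numbered libraries shared a mouse or a batch. With a replicate block, the members that fell numbered 22 in the knockout, 11 with Srci1 in TH17 cells and 20 in Treg cells. Depth is unknown in TPM, so low members such as Pfkfb2, Pfkfb4 and Eno2 carry no counting error of their own here.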
